A study of Mus musculus with 36 samples.

Results

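The genes described here are 10 imprinted genes of the mouse: Usp29, Peg3 and Zim1 of the Peg3 domain on chromosome 7, H19 and Igf2 of the Igf2-H19 domain, Dlk1 and Meg3 of the Dlk1-Dio3 domain, and Mest, Igf2r and Grb10, each from a domain of its own. They were chosen by symbol out of 54842 gene rows, and all 10 symbols were found. Their RNA was measured in 36 libraries of mouse embryonic fibroblasts (MEF) that fall into 12 groups of 3 replicates. Both cell lines carried a doxycycline-inducible, catalytically dead Cas9 (dCas9) and a guide RNA against the major satellite repeats (MSR) of pericentric heterochromatin. In the MSR-dCas9-Control line dCas9 had no effector, and in the MSR-dCas9-Activator line it was fused to the transcriptional activator VPR. Samples of each line were taken without doxycycline (uninduced), at the end of an induction with 10 ng/ml doxycycline (induced), and again at 3, 6, 12 and 24 h from the removal of the drug. Induction lasted 24 h in the Control line and 6 h in the Activator line, so effector and length of induction cannot be told apart after induction. Each line is a mixed culture of cells with PiggyBac insertions and not a clone, the guide RNA was expressed without doxycycline in both, and both lines had passed through hygromycin selection. Since there is 1 line per construct, a difference between the uninduced lines cannot be told apart from a difference between the cultures they were made from. The paper also reports raised MSR transcript levels in the Activator line without doxycycline. Uninduced Activator cells are therefore not known to be free of an effect of the effector, and this cannot be told apart either. Nothing in the labels says that replicates came from separately derived lines, so the errors measure the spread between these samples.

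The median library held 42865961 gene counts, the smallest 27376846 and the largest 57371803. Counts are given as normalised counts, which are raw counts scaled to a common library size by TMM, and 1 raw count was worth between 0.72 and 1.54 normalised counts. Every replicate pair differed beyond counting noise, so all 36 libraries were counted as separate samples. A list of 12 fibroblast genes summed to between 951838 and 1466069 normalised counts in the Control line and to between 1402938 and 1443826 in the uninduced Activator line, which goes with the label of the cells. From induction on the same list summed to between 459639 and 1249679 in the Activator line. Markers of other cell types stayed low beside these sums, and the highest sum of any of the 7 other lists was 1815. Control 6 h replicate 1 held the highest Control counts of Meg3, H19 and Grb10, and values that rest on it are given with that library named.

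Genomic imprinting leaves a gene active on the chromosome inherited from 1 parent and silent on the other, through DNA methylation laid down in the germline and kept through later cell divisions by factors such as the zinc finger protein ZFP57 and the DNA methyltransferases. Imprinted genes lie in domains that share a control region, and a domain often holds genes expressed from opposite parental chromosomes, as the paternally expressed growth factor gene Igf2 and the maternally expressed non-coding RNA gene H19 do. Many act on growth in the embryo and placenta, where they are most active, and several are turned down in adult tissue. The counts used here do not separate the parental chromosomes, so all values are totals over both.

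Usp29 and Peg3 are the members that were called lower in the Activator line before induction, and they share their promoter region. Both are expressed from the paternal chromosome. Usp29 encodes a ubiquitin-specific protease and lies on the plus strand at chr7:6730578-6967219 of GRCm38. Peg3 encodes a large zinc finger protein and lies head to head with it on the minus strand at chr7:6703892-6730431. Zim1, a maternally expressed zinc finger gene of the same domain, follows on the minus strand at chr7:6671269-6696450. The promoter windows that RefSeq gives for Usp29 and Peg3, each running from 250 bases before to 50 bases after the start, overlap in 263 of 300 bases. The stretch between the annotated starts of both genes, chr7:6730432-6730577 on the plus strand, has 146 bases, holds 5 CpG dinucleotides and is 61.6% G or C. It is printed from the GRCm38.p6 sequence of RefSeq, 5′ to 3′, with the CpG dinucleotides in capitals, because any transcript of either gene that begins at the annotated start begins at an edge of it.
Peg3-Usp29: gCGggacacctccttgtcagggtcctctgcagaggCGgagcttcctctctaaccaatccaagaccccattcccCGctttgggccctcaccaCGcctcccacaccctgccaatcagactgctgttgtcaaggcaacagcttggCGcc
Meg3, a maternally expressed non-coding RNA gene at chr12:109541001-109571726 on the plus strand, had the opposite line difference. The 250 bases before its RefSeq start, chr12:109540746-109540995 on the plus strand, hold 10 CpG dinucleotides and are 52.4% G or C. They are printed for comparison, with matches of the motifs that were searched in capitals.
Meg3: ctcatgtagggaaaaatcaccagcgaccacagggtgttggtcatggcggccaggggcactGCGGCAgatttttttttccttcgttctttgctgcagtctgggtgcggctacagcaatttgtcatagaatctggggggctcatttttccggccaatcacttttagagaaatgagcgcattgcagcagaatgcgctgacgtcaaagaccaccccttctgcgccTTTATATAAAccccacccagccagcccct
The motifs searched on both strands were TGCCGC (the core of the ZFP57 site), GCCATNTT (bound by YY1) and TATAAA (the TATA box). The stretch between Peg3 and Usp29 holds none of them. The Meg3 stretch holds TGCCGC on the reverse strand, ending 190 bases before the start, and TATAAA on both strands 25 and 29 bases before it, as 2 matches that overlap each other. Among 32851 mouse promoter windows of 300 bases, TGCCGC is found in 11.6%, GCCATNTT in 6.05% and TATAAA in 13.6%. A match is a run of letters and is not a measured binding site. RefSeq windows were found for 9 of the 10 members, the exception being H19.

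Usp29 had between 142 and 261 normalised counts in the 18 Control libraries (median 210) and between 2.9 and 48.6 in the 18 Activator libraries (median 17). No Activator library reached the lowest Control library. In uninduced cells the Control replicates had 243, 224 and 204 normalised counts and the Activator replicates 48.6, 36.5 and 31.7. The fitted difference was −2.51 on the log2 scale (standard error 0.22), a level 5.7-fold lower in the Activator line before any doxycycline was given. Marker sums of liver and of epidermis also differed between the uninduced lines, with 575 to 616 and 219 to 245 normalised counts in the Control line and 820 to 1412 and 277 to 325 in the Activator line. Alb, Ttr, Serpina1a and Fgb of the liver list and Krt5, Krt1 and Epcam of the epidermis list were at 0 in all uninduced Activator libraries. The part of these markers in the line difference of Usp29 was not tested. In bulk RNA a lower level in every cell and a smaller share of cells that express the gene cannot be told apart.

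After induction the Control replicates had 216, 176 and 189 normalised counts of Usp29 and the Activator replicates 12.3, 23.2 and 21.6. At 3 h after doxycycline removal they had 149, 142 and 196 against 10.8, 10.7 and 7.75, and at 6 h 156, 191 and 193 against 13.3, 20.6 and 9.52. As a fold, the gap was therefore wider than in uninduced cells at each of these times. At 12 h the Control replicates had 235, 250 and 261 and the Activator replicates 10.2, 11.1 and 2.9, the last of which is 2 raw counts. At 24 h they had 218, 233 and 251 against 38.9, 38.5 and 32.7, close to where both lines began. The fitted line differences were −3.36, −4.03, −3.61, −4.84 and −2.67 on the log2 scale from induction to 24 h, with standard errors between 0.22 and 0.27, and the level at 12 h was 28.6-fold lower in the Activator line. Within the Activator line the log2 difference from its own uninduced cells was −1.05, −1.98, −1.41, −2.18 and −0.09 from induction to 24 h (standard errors 0.24 to 0.30). All 18 Activator libraries together held 391 raw counts of Usp29 and the Control libraries 3726. The Activator values at 3 to 12 h therefore rest on few reads each. The paper reports that most cells of the Activator line were apoptotic or dead by the last time point. At 24 h the list of 12 fibroblast genes summed to between 459639 and 830515 normalised counts in the Activator line. In the Control line it summed to between 1008309 and 1103969. The part of cell death in the 24 h values of Usp29 and of the other genes was not tested.

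Peg3 showed the same difference between uninduced lines at a higher level, and no second step after induction. Its normalised counts lay between 4089 and 5796 in the Control line (median 4955) and between 1145 and 1746 in the Activator line (median 1308). Uninduced Control replicates had 5110, 4745 and 4491 and uninduced Activator replicates 1245, 1746 and 1145. Activator replicate 2 was the highest of its 3 replicates in all 6 groups, and no Activator library came near the lowest Control library. After induction the replicates had 5796, 5324 and 4802 in the Control line and 1288, 1743 and 1199 in the Activator line. At 3 h they had 4184, 4143 and 4284 against 1278, 1573 and 1242, and at 6 h 4905, 4089 and 4453 against 1285, 1544 and 1288. The Control means at these times, 4204 and 4482, were the lowest of the Control line. At 12 h they had 5005, 5117 and 5515 against 1285, 1537 and 1385, and at 24 h 5251, 5684 and 5164 against 1415, 1587 and 1328. Over the time course Peg3 thus stayed within a narrow band in each line. The fitted line difference was −1.81, −1.92, −1.63, −1.72, −1.90 and −1.90 on the log2 scale from uninduced cells to 24 h (standard error 0.12 each), between 3.1-fold and 3.79-fold lower in the Activator line. Against its own uninduced cells the Activator line differed by between −0.01 and 0.07 on the log2 scale (standard error 0.11). Per kilobase of exon, the median level of Peg3 was 372 normalised counts in the Control line and 98.2 in the Activator line, and that of Usp29 11.6 and 0.938, so Peg3 was the more abundant RNA of the pair in both lines.

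**Figure D1:**
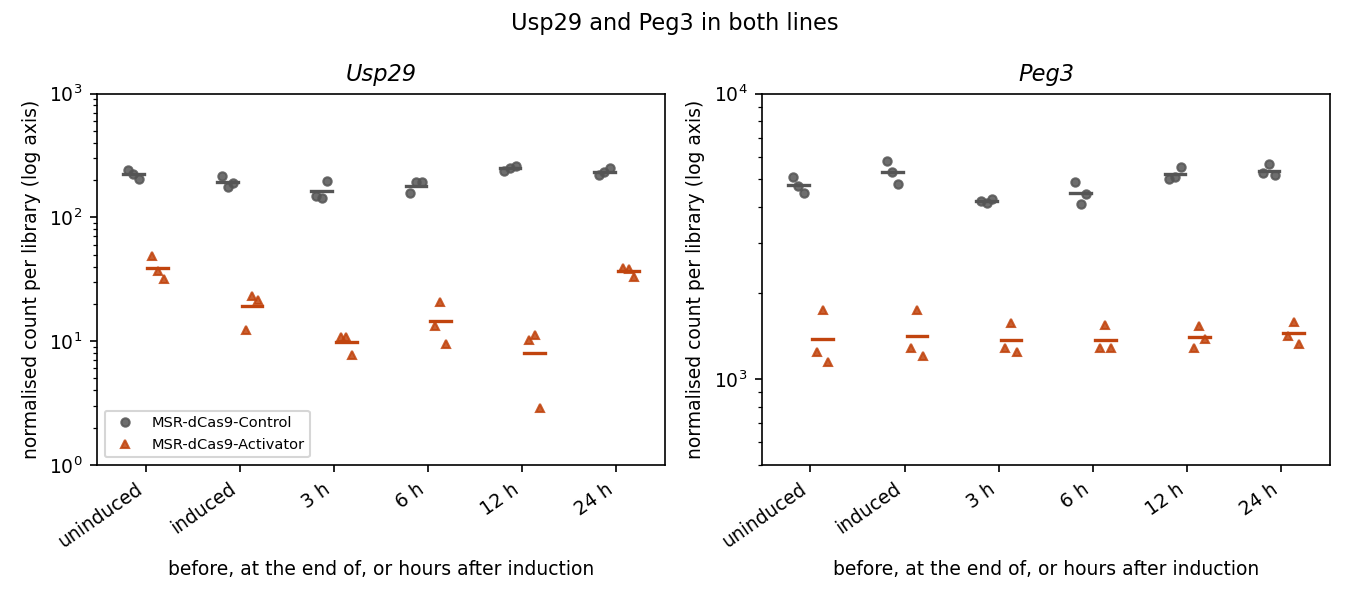
Normalised counts of Usp29 and Peg3 (vertical axes, log scale) by time point (horizontal axes) in the Control line (circles) and the Activator line (triangles). Each point is 1 library and each bar the mean of 3 replicates. Peg3 runs level in both lines, while Usp29 in the Activator line goes from a mean of 38.9 in uninduced cells to 8.07 at 12 h and back to 36.7 at 24 h.

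The ratio of Usp29 to Peg3 puts both genes of the shared promoter region on 1 scale within each library and does not depend on library size. In the Control line the group means lay between 3.65% and 4.77%. In the Activator line Usp29 was 2.92% ± 0.915 of Peg3 in uninduced cells (SD, n = 3) and 1.36% ± 0.423 after induction. It was then 0.717% ± 0.117, 1.04% ± 0.297, 0.575% ± 0.319 and 2.54% ± 0.178 at the 4 times after removal. From induction to 12 h the ratio in the Activator line was therefore lower than before induction, with no overlap between these replicates and the uninduced ones. The line difference of Peg3 was of similar size at all 6 time points, and that of Usp29 was wider as a fold from induction to 12 h.

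**Figure D2:**
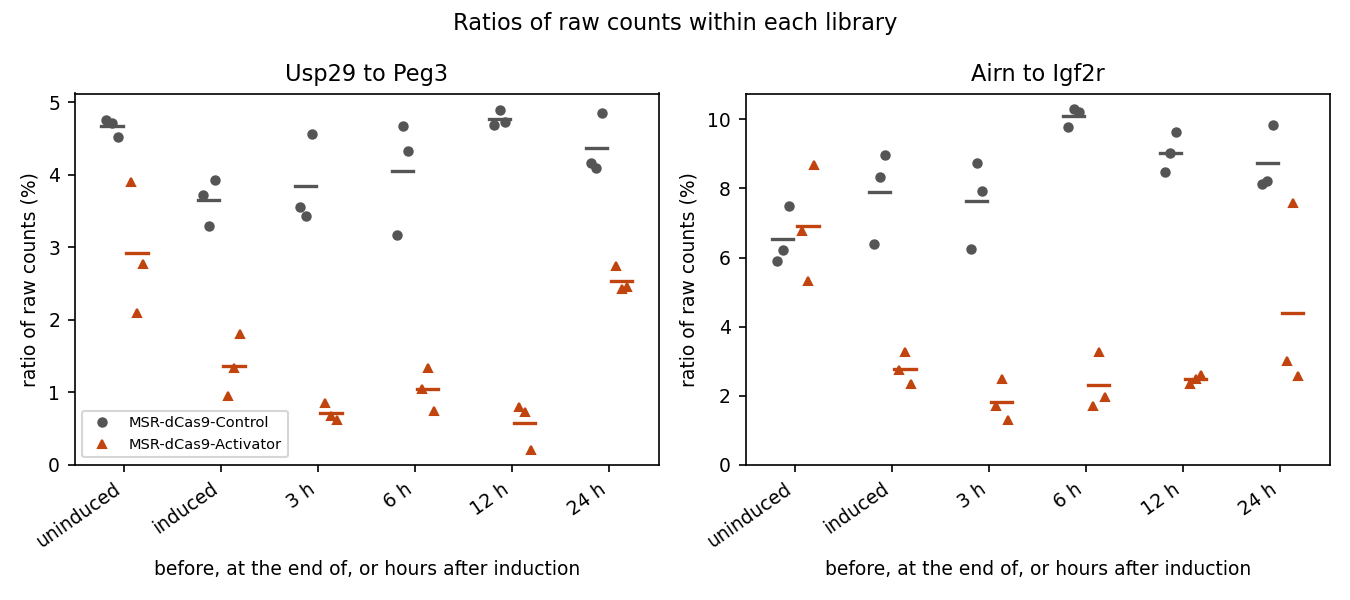
Ratios of raw counts within a library, in percent (vertical axes), by time point (horizontal axes) in the Control line (circles) and the Activator line (triangles), for Usp29 to Peg3 and for the antisense gene Airn to Igf2r. Points are libraries and bars the means of 3 replicates. In every Activator library from induction to 12 h both ratios are lower than in every Control library of the same time.

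Both genes belong to a short list in uninduced cells. Genes were called different when the Benjamini-Hochberg adjusted p-value of edgeR's quasi-likelihood test was under 0.05, the fold change over 2-fold and the mean over 100 normalised counts. By this rule 6 of 28536 tested genes (0.021%) were lower in the uninduced Activator line than in the uninduced Control line. They were Usp29, Plcg2, Peg3, Atg4a, Clca3a1 and Hecw1, of which the 4 that are no members are named because the list is this short. Their log2 differences were −2.51 for Usp29, −1.89 for Plcg2, −1.81 for Peg3, −1.59 for Atg4a, −1.18 for Clca3a1 and −1.02 for Hecw1. Of the 8 members that passed the filter on low counts, 2 were called in uninduced cells, where 0.214% of all genes were called. From induction to 24 h the members called numbered 2, 2, 2, 3 and 2, at times when 8.48%, 12.8%, 13.9%, 15.2% and 7.46% of all genes were called. They were Usp29 and Peg3 at every time point and Igf2 at 12 h, just past the 2-fold limit. The members were chosen with these differences known, so they are given as a description and the counts support nothing.

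The genes around the Peg3 domain were examined to see how far the difference reaches. Within 500 kb on either side of the stretch from Zim1 to Usp29, chr7:6171269-7467219, the annotation has 65 genes, of which 31 were tested and 29 of these are not members. Of all 28536 tested genes 2964 had an unadjusted p under 0.05 before induction, and 1.23% an adjusted p under 0.05. Before induction none of the 29 was called, with 6 at an unadjusted p under 0.05 and 1 at an adjusted p under 0.05. The latter was Gm44863 (−3.41, adjusted p = 0.00883), which lies inside Usp29 on the same strand, as does Gm44862 (−1.72), and both had low counts. Olfr1336 (4.78) and Gm20715 (2.13), also with low counts, had values in the other direction. The 7 of them with a mean over 100 normalised counts are the zinc finger genes Zfp444, Zfp667, Zfp28, Zfp954, Zfp418 and Zfp772 and the chloride channel gene Clcn4, and in uninduced cells their line differences lay between −0.08 and 0.30 on the log2 scale. After induction none of the 29 was called, with 15 at an unadjusted p under 0.05, beside 17624 of all 28536 tested genes. At 3 h Zfp28 (−1.38), Zfp954 (−1.02) and Zfp418 (−1.04) were called lower in the Activator line. At 6 h these were joined by Zfp667 (−1.19), at 12 h Zfp418 alone was called (−1.91), and at 24 h none was. At 24 h 18 of the 29 had an unadjusted p under 0.05, beside 19184 of all tested genes. A call needs a mean over 100 normalised counts, so only 7 of the 29 could be called at any time. Of all tested genes 0.214% were called in uninduced cells, and 8.48%, 12.8%, 13.9%, 15.2% and 7.46% from induction to 24 h. The median difference of the 7 genes was 0.08, −0.35, −0.79, −1.05, −0.56 and −0.31 from uninduced cells to 24 h, beside medians over all tested genes of 0.03, 0.10, 0.16, 0.13, 0.12 and 0.01.

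**Figure D3:**
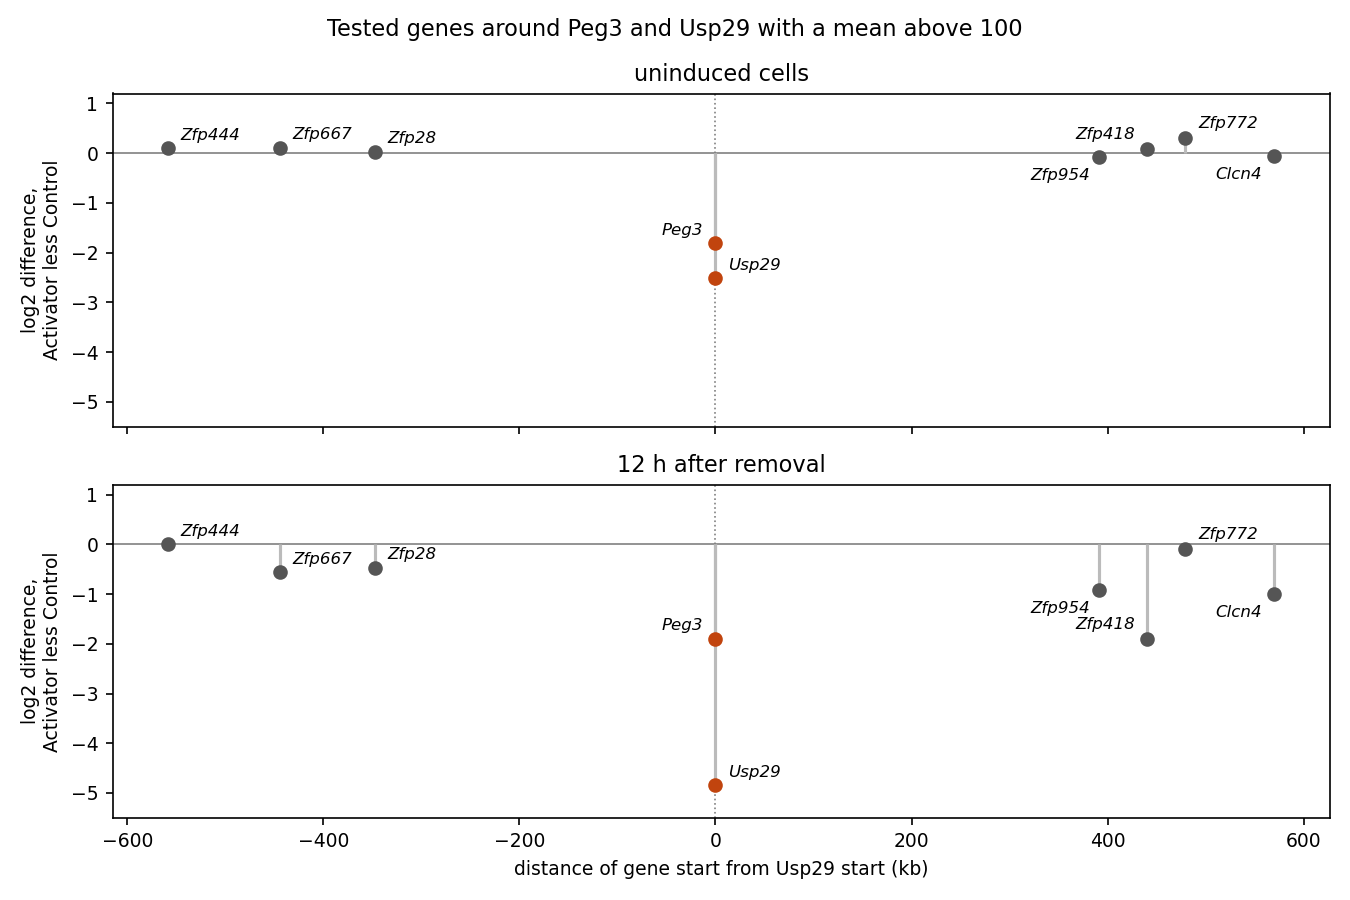
Fitted log2 difference, Activator less Control line (vertical axes), of Usp29, Peg3 and the 7 tested neighbours with a mean over 100 normalised counts, by the distance of the gene start from that of Usp29 in kilobases (horizontal axis), in uninduced cells and 12 h after doxycycline removal. In uninduced cells the neighbours lie between −0.08 and 0.30, above Peg3 at −1.81 and Usp29 at −2.51, and at 12 h Zfp418 lies at −1.91.

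Zim1 was hardly detected. It had 10 raw counts in all 18 Control libraries and 15 in all 18 Activator libraries, was at 0 in 20 of 36 libraries and reached at most 4.76 normalised counts, in Activator 6 h replicate 1. A count of 0 allows up to 3 counts, which correspond to between 2.16 and 4.61 normalised counts depending on the library, so no line difference of Zim1 was detectable at this depth. Of other genes of the domain, Zim2 had 3 raw counts in all libraries. Zim3, at chr7:6955685-6977420 on the minus strand, overlaps the last 11.5 kb of Usp29. Its means in the Activator line were 14.3 ± 10.9 at 12 h and 15.1 ± 11.1 at 24 h (SD, n = 3), against 1.33 ± 0.705 and 0.888 ± 0.878 in the Control line, with log2 differences of 3.17 (adjusted p = 0.00426) and 3.74 (adjusted p = 0.00195). The strand setting of the counting is not given in the sources used here, so reads of Zim3 and Usp29 may be shared.

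H19, Meg3 and Grb10 had low counts in the Control line, and each had more counts in the Activator line. Meg3 was above the floor of 3 counts in every Activator library, and Grb10 was at or under it in 6 of 18. Meg3 had between 0 and 14.3 normalised counts in the Control libraries (median 1.17, 35 raw counts in all) and between 13.1 and 79.8 in the Activator libraries (median 42.4, 744 raw counts in all). The Control value of 14.3 is 10 raw counts in 6 h replicate 1, and the next highest Control value was 5.18. In uninduced Activator cells the replicates had 48.6, 68.0 and 53.6 normalised counts, and the ratio of the summed counts of the Activator to the Control line was 44.6 (95% counting interval 17.1 to 166). The Activator line thus held Meg3 RNA before induction. Its Meg3 means were 56.7, 39.0, 25.4, 29.1, 29.1 and 62.6 from uninduced cells to 24 h. The replicates were 32.0, 48.7 and 36.3 after induction, 27.5, 32.1 and 16.6 at 3 h, and 17.2, 51.0 and 19 at 6 h. They were 21.4, 52.7 and 13.1 at 12 h and 54.3, 79.8 and 53.8 at 24 h, with replicate 2 the highest in each of these groups. The ratio to the Control line was highest after induction, at 56.3 (15.3 to 470). It was 12.2 (5.4 to 34.3), 8.31 (4.31 to 17.9), 14.0 (6.51 to 35.8) and 31.0 (14.0 to 85.6) at the 4 times after removal. The fitted log2 difference at 6 h was 2.87 with all libraries and 7.94 without Control 6 h replicate 1, and that at 3 h was 3.45 and 5.41 without Control 3 h replicate 3. These intervals cover counting error only. Meg3 had a mean of 21.3 normalised counts over all libraries and so could not be called.

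Other genes of the Dlk1-Dio3 domain were low as well. Dlk1, the paternally expressed gene of a membrane-bound Notch ligand that lies at chr12:109452823-109463336, had 4 raw counts in the Control line and 4 in the Activator line and was at 0 in 29 of 36 libraries. Rian, a non-coding RNA gene downstream of Meg3 that was singled out after its values were seen, had 2.97 ± 3.04 normalised counts in uninduced Control cells and 89.7 ± 18.8 in uninduced Activator cells (SD, n = 3). The log2 difference was 5.02 (adjusted p = 3.49e-08), and Rian and Pon3 were the 2 of 51 tested imprinted genes other than the members whose uninduced difference had an adjusted p under 0.05, as 1.23% of all tested genes had. Over the time course the mean of Rian in the Activator line was 68.6, 52.8, 43.3, 44.1 and 77.0 from induction to 24 h, lowest at 6 and 12 h. Meg3 was lowest at 3 h. Control 6 h replicate 1 again held the highest Control value of Rian, 17.1 normalised counts from 12 raw counts.

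H19, on the minus strand at chr7:142575529-142578143, had 22 raw counts in all Control libraries and 131 in all Activator libraries. Its normalised counts lay between 0 and 5.71 in the Control line (median 0.944, with 6 libraries at 0) and between 3.28 and 12.2 in the Activator line (median 6.57). The ratio of summed counts was 6.53 (95% counting interval 1.92 to 34.5) in uninduced cells and 4.2 (1.71 to 12.4) after induction. In the libraries taken after removal it was 14.4 (3.69 to 124), 4.25 (1.57 to 14.4), 15.8 (2.4 to 666) and 2.95 (1.02 to 10.4), in order of time. The groups overlapped at 6 h only, where Control replicate 1 had the highest Control value, and the fitted log2 difference at 6 h was 1.96 with and 3.79 without that library. At 12 h it was 3.54 with all libraries and 5.21 without Control replicate 2, and these values rest on few counts. H19 is among the most abundant RNAs of the mouse embryo, and here its Control levels lay at or near the floor of 3 counts. Grb10, the gene of an adaptor protein that binds the insulin and IGF1 receptors, lies on the minus strand at chr11:11930508-12038683 and had 34 raw counts in the Control line and 110 in the Activator line. Its normalised counts were 0 to 7.14 (median 1.63) and 1.02 to 14.8 (median 5.91). The ratio was 4.33 (1.59 to 14.7) in uninduced cells, between 2.42 and 7.65 from induction to 12 h, and 1.72 (0.675 to 4.74) at 24 h, where the interval includes 1. The groups of Grb10 overlapped at 4 of the 6 time points, and without Control 6 h replicate 1 its fitted difference at 6 h was 2.12 in place of 1.28.

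Mest, the paternally expressed gene of an alpha/beta hydrolase fold protein at chr6:30723547-30748465, did not separate the lines. Its normalised counts lay between 41.4 and 73.8 in the Control line (median 53.4) and between 29.0 and 81.6 in the Activator line (median 50.1), and the groups overlapped at all 6 time points. The log2 line differences were 0.19, 0.17, −0.31, −0.02, −0.27 and 0.02 from uninduced cells to 24 h (standard errors 0.25 to 0.27).

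Igf2 and Igf2r were the most abundant members. Igf2 encodes insulin-like growth factor 2, and Igf2r the receptor that takes it up and sends it to the lysosome. Igf2 lies on the minus strand at chr7:142650766-142666816 and overlaps Igf2os, and Igf2r lies on the minus strand at chr17:12682406-12769664 and overlaps the antisense gene Airn. In uninduced cells Igf2 had 42134, 41506 and 32627 normalised counts in the Control line and 41665, 39955 and 44592 in the Activator line. Igf2r had 11478, 11686 and 10056 and 9774, 12661 and 10811. The lines overlapped for both genes, with log2 differences of 0.12 and 0.00. At 12 h Igf2 had 23095, 21922 and 20105 in the Control line and 46539, 33929 and 50013 in the Activator line, and Igf2r 7468, 6910 and 7507 and 11724, 14271 and 12610. The lines did not overlap for either gene at this time. The log2 line difference of Igf2 was 0.47, 0.64, 0.89, 1.00 and 0.35 from induction to 24 h (standard error 0.14), and that of Igf2r 0.31, 0.44, 0.65, 0.81 and 0.40 (standard error 0.09). Scaling to the 13 mitochondrially encoded mRNAs moved these to 0.11, 0.02, 0.19, 0.35 and 0.18 for Igf2 and to −0.06, −0.17, −0.06, 0.20 and 0.22 for Igf2r, so their direction rests on the scaling for Igf2r up to 6 h. That scaling moved the median difference of all tested genes from 0.10, 0.16, 0.13, 0.12 and 0.01 to −0.25, −0.44, −0.58, −0.49 and −0.18 in the same order.

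**Figure D4:**
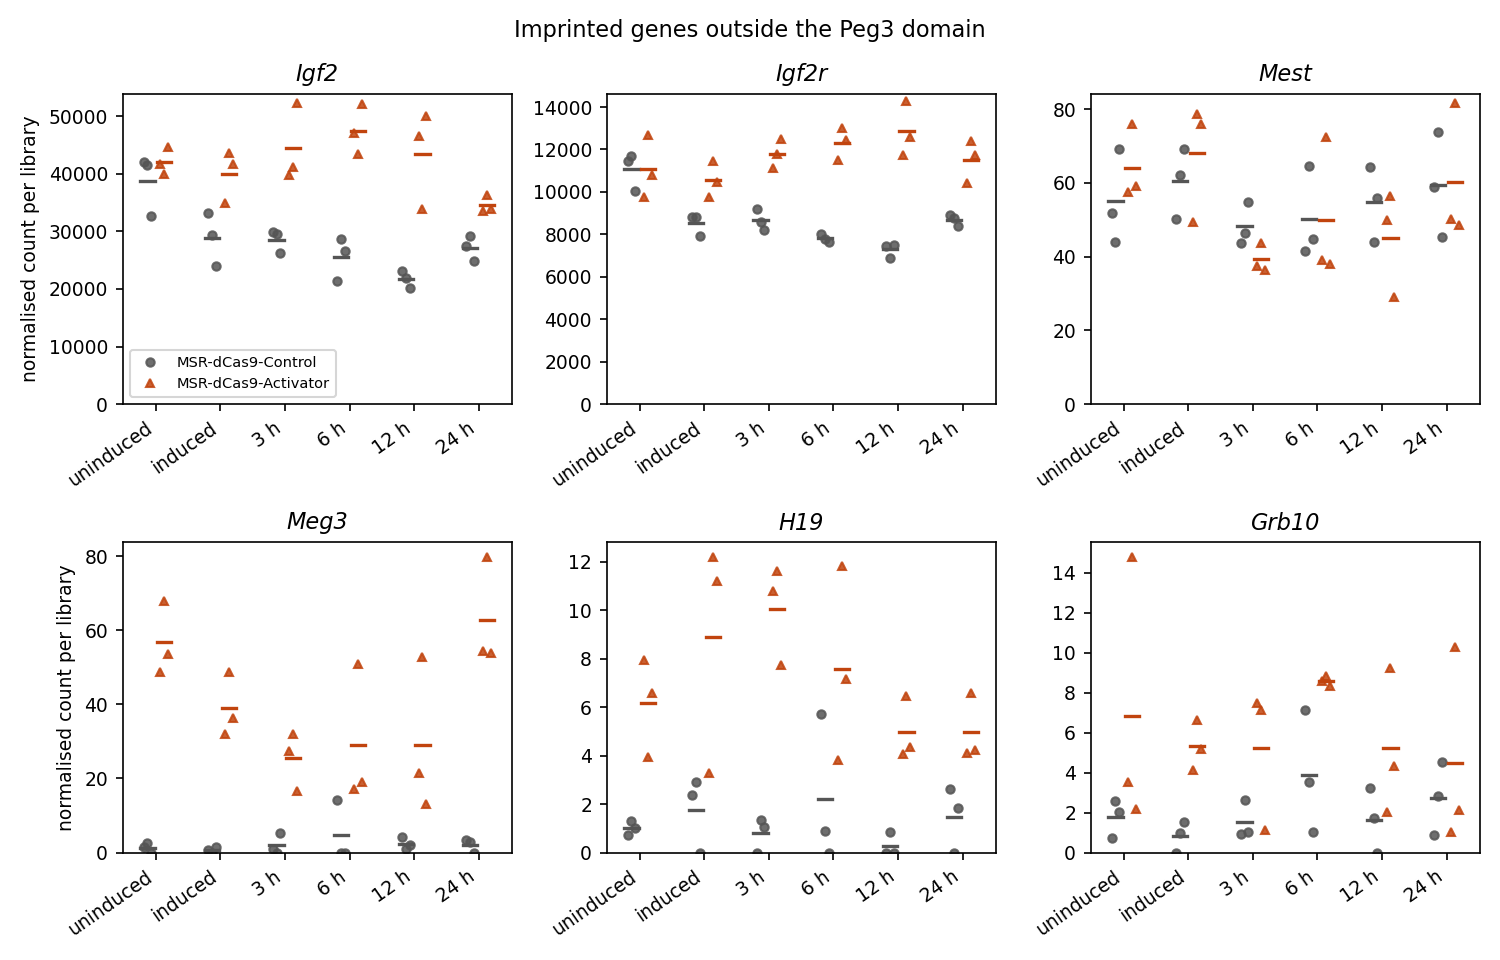
Normalised counts of the 6 tested members outside the Peg3 domain (vertical axes, from 0) by time point (horizontal axes) in the Control line (circles) and the Activator line (triangles), each point 1 library and each bar the mean of 3 replicates. Meg3 lies between 13.1 and 79.8 in the Activator line and at or under 14.3 in the Control line, Mest overlaps throughout, and Igf2 and Igf2r separate the lines after induction, with the widest gap at 12 h.

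The Control levels of Igf2 and Igf2r were lower from induction on than before it. The time course of the Control line is another contrast than the line differences that were known when the members were chosen, and it was tested against uninduced Control cells. It shares the Control libraries with those differences, so its p-values are not independent of the choice. By the full rule no member was called at any of the 5 times, where 0.0561%, 0.123%, 0.0806%, 0.263% and 0.109% of all genes were called from induction to 24 h. At an unadjusted p under 0.05 edgeR gave 2 members after induction, 3 at 3 h and 2 at each later time, and DESeq2 called 0 members by the full rule at all 5. Of all 28536 tested genes 2064, 2524, 2454, 2927 and 3233 had an unadjusted p under 0.05 in edgeR at these times. On edgeR's adjusted p alone, without the limits on fold and mean, 0, 0, 2, 2 and 1 members passed from induction to 24 h, where 0.214%, 0.55%, 0.403%, 1.05% and 0.788% of all genes did, and each that passed was lower than in uninduced cells. With DESeq2 Igf2r passed after induction (adjusted p = 0.00203) and at 3 h (adjusted p = 0.00298) as well, and Igf2 at 24 h (adjusted p = 0.0173). Igf2 fell by 0.60 on the log2 scale at 6 h (adjusted p = 0.0491) and by 0.84 at 12 h (adjusted p = 0.00141). Its Control replicates had 21354, 28684 and 26632 normalised counts at 6 h. At 24 h they had 27522, 29223 and 24826, and the difference of −0.51 did not pass in edgeR (adjusted p = 0.0774). Igf2r fell by 0.50 at 6 h (adjusted p = 0.00395), by 0.60 at 12 h (adjusted p = 2.07e-04) and by 0.35 at 24 h (adjusted p = 0.0493). Its Control replicates had 8035, 7802 and 7623 at 6 h and 8906, 8786 and 8408 at 24 h, each below all uninduced Control replicates. In the Activator line Igf2 differed from its own uninduced cells by between −0.28 and 0.18 and Igf2r by between −0.07 and 0.22. The fall at 12 h was kept by Igf2 and by Igf2r whichever of the 6 Control libraries compared was left out (highest adjusted p 0.0242 and 0.00805). Under scaling to the mitochondrial mRNAs the fall of Igf2 at 12 h still passed on the adjusted p alone (−0.68). For Igf2r no time passed under that scaling, with values of −0.51 at 6 h (adjusted p = 0.596), −0.44 at 12 h (adjusted p = 0.466) and −0.31 at 24 h (adjusted p = 0.91) that lay near the main ones. With each of the 6 Control libraries compared left out in turn, the fall of Igf2 at 6 h passed in 1 of 6 fits. That of Igf2r passed in 5 at 6 h and in 1 at 24 h. The results for Igf2 at 6 h and for Igf2r at 24 h thus rest on most single libraries of the comparison. Under 6 other settings of the processing, Igf2 at 6 h passed in 5 and Igf2r at 24 h in 3. The list of 12 fibroblast genes moved with Igf2 and Igf2r in the Control line. Its median sum went from 1377314 normalised counts in uninduced cells to 982020 at 12 h, and its part in the result was not tested. Usp29 and Peg3 passed at none of these times in the Control line, with adjusted p between 0.465 and 0.986 for Usp29 and between 0.633 and 0.915 for Peg3.

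The genes antisense to Igf2 and Igf2r behaved differently from their partners. Airn, the non-coding RNA that silences Igf2r on the paternal chromosome, had 756 ± 156 normalised counts in uninduced Activator cells and 214 ± 68 at 3 h, against 718 ± 39.5 and 659 ± 87.9 in the Control line (SD, n = 3). It was called lower in the Activator line from induction to 12 h, with log2 differences of −1.19, −1.63 (adjusted p = 4.19e-06), −1.50 and −1.07. The ratio of Airn to Igf2r in the Activator line was 6.91% ± 1.68 in uninduced cells, 1.82% at 3 h and 4.39% ± 2.77 at 24 h, and its 24 h replicates were 3.01%, 7.57% and 2.57%. In the Control line the ratio lay between 6.53% and 10.1%. The ratio of Igf2os to Igf2 lay between 4.18% and 6.57% in the Control line and between 2.57% and 3.26% in the Activator line. Each of these genes overlaps its partner on the other strand, so reads of a pair may be shared.

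Beyond the members, a list of 63 other imprinted genes was followed, of which 62 were in the table and 51 were tested. None of the 51 was called between the uninduced lines by edgeR or DESeq2. In edgeR 9 of them had an unadjusted p under 0.05, beside 2964 of all 28536 tested genes. After induction 10 were called, 3 of them higher and 7 lower in the Activator line (19.6% of 51). The counts were 13 after 3 h (3 higher and 10 lower, 25.5%), 14 after 6 h (3 higher and 11 lower, 27.5%), 12 after 12 h (3 higher and 9 lower, 23.5%) and 5 after 24 h (2 higher and 3 lower, 9.8%). Of all tested genes 2.78%, 3.39%, 3.6%, 4.29% and 3.34% were called higher and 5.71%, 9.45%, 10.3%, 10.9% and 4.12% lower at these times. A call needs a mean over 100 normalised counts, which 30 of the 51 had, against 13628 of the 28536 tested genes. On the adjusted p alone 17 were higher and 17 lower after induction, 20 and 19 after 3 h, and 21 and 19 after 6 h. At 12 h there were 21 and 20, and at 24 h 17 and 19. The split of all tested genes by this rule is not given here, so the near-even split is not read as a trait of the list. At an unadjusted p under 0.05 there were 35, 40, 41, 42 and 37 of the 51 from induction to 24 h. Of all 28536 tested genes 17624, 20823, 21626, 21903 and 19184 were under that limit. The count at 24 h was 9 without Activator 24 h replicate 2. The median log2 difference of the list was 0.06, 0.06, −0.04, 0.02 and −0.05, beside 0.10, 0.16, 0.13, 0.12 and 0.01 over all tested genes. In the time course of the Control line Dcn, the gene of the extracellular matrix proteoglycan decorin, was the 1 of the 51 that was called, at 12 h with a log2 change of −2.55 (adjusted p = 0.00108).

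Among the genes called lower, which needed a mean over 100 normalised counts, Peg12, a paternally expressed intronless gene of the Snrpn-Ndn domain, showed the widest difference. Its mean in the Activator line was 400 ± 38.4 normalised counts in uninduced cells and 170 ± 69.1 after induction, followed by 87.2 ± 20.7, 59.5 ± 4.21, 60.1 ± 29.2 and 158 ± 48.3 (SD, n = 3), while the Control means lay between 392 and 522. The log2 line difference reached −3.04 at 12 h (adjusted p = 2.02e-12) and was −1.34 at 24 h (adjusted p = 2.83e-06). Tssc4, of the Kcnq1 domain, reached −1.99 at 3 h (adjusted p = 6.64e-14), and Kcnq1ot1, the long non-coding RNA that silences genes of that domain on the paternal chromosome, reached −1.58 at 3 h (adjusted p = 1.84e-10), with 5904 ± 1084 normalised counts against 17594 ± 634. Like Usp29, both were nearest to the Control line before induction and closer to it at 24 h than at 3 h. Blcap (−2.23, adjusted p = 3.29e-10), the splicing factor gene Zrsr1 (−1.88, adjusted p = 2.37e-09), the antisense RNA gene Nespas of the Gnas domain (−1.39, adjusted p = 5.37e-12) and Nnat, which encodes the membrane proteolipid neuronatin (−1.13, adjusted p = 4.02e-05), also had their values at 3 h given here and were not called at 24 h. The amino acid transporter gene Slc38a4 (−2.47, adjusted p = 5.72e-10), the non-coding RNA gene Peg13 (−1.90, adjusted p = 4.12e-06), the oxysterol-binding protein gene Osbpl5 (−1.41, adjusted p = 5.41e-06) and the paraoxonase gene Pon2 (−1.37, adjusted p = 4.33e-12) had their largest differences at 12 h. For these 11 genes and Airn the uninduced lines did not differ by the test. The uninduced differences ran from −0.29 to 0.21, which sets them beside the −2.51 of Usp29 and −1.81 of Peg3.

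**Figure D5:**
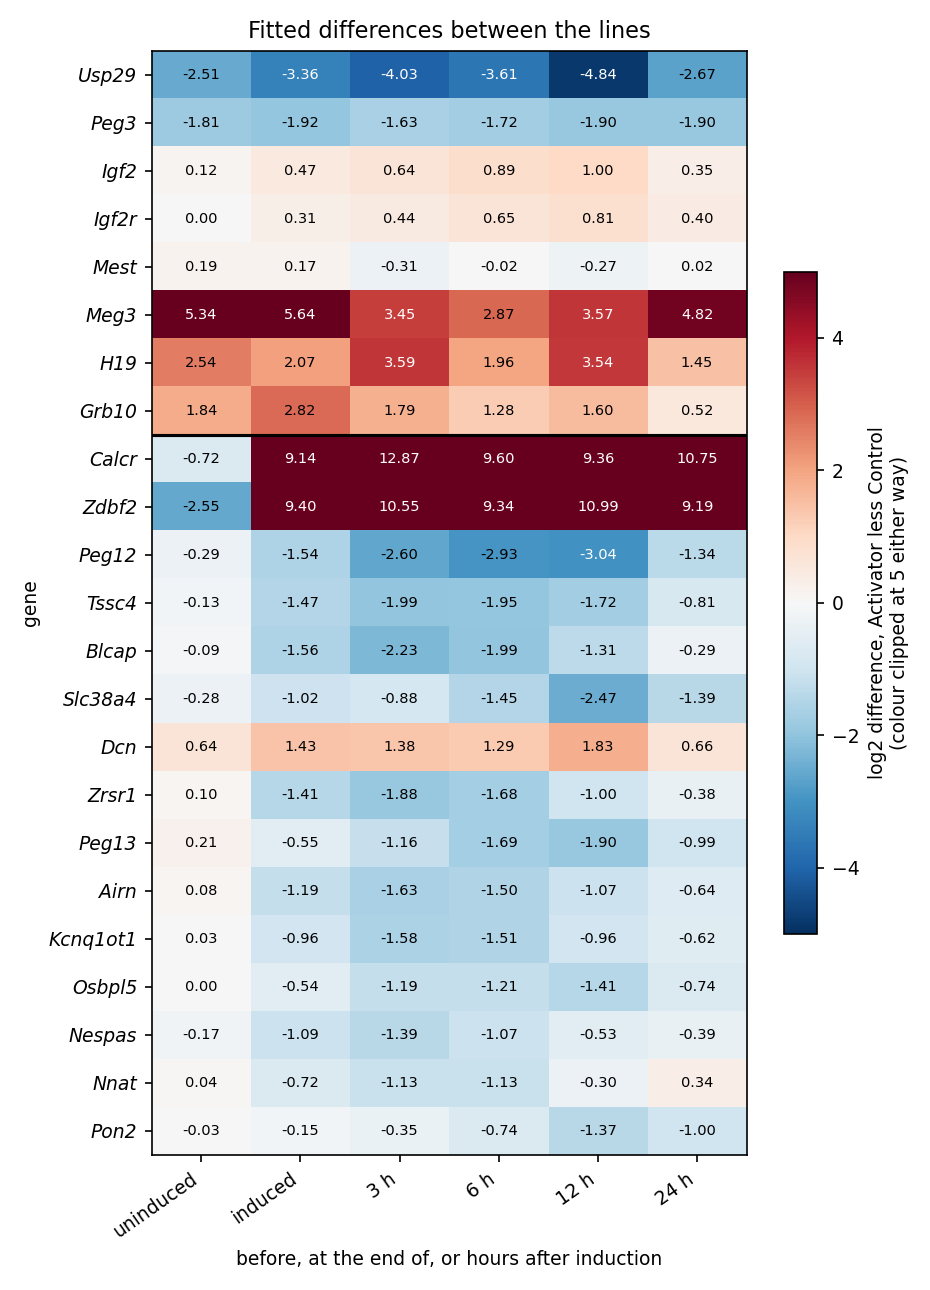
Fitted log2 difference, Activator less Control line, of the 8 tested members (above the line) and the 15 named other imprinted genes (below it), in rows, by time point in columns, with the value printed in each cell and the colour clipped at 5 in either direction. Usp29 and Peg3 are low in all 6 columns, while most of the other genes are near 0 in uninduced cells and low from induction on.

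Calcr and Zdbf2, which were called higher in the Activator line at all 5 times from induction on, had come from a level near 0. Calcr, the calcitonin receptor gene, averaged 0.328 normalised counts in uninduced Activator cells and 465, 898, 1200, 1568 and 804 from induction to 24 h, while the Control means lay between 0 and 2.36. At 3 h, where all Control libraries were at 0, it was at least 852-fold higher against a floor of 3 counts over the group, and at 12 h the ratio was 683 (95% counting interval 331 to 1701). Zdbf2, a zinc finger gene expressed from the paternal chromosome, had no counts in uninduced Activator cells and averaged 573, 680, 767, 897 and 481 from induction to 24 h. The ratio at 12 h was 2743 (492 to 108395). The transporter gene Slc22a2 beside Igf2r, the zinc finger gene Plagl1 and Ndn (necdin), chosen after their values were seen, were alike in this, with Activator means at 12 h of 144, 200 and 20.7 normalised counts and Control means of 0 at that time. Against the floor these were at least 149-fold, 211-fold and 21.4-fold higher. Dcn was higher in the Activator line on the log2 scale by 1.43, 1.38, 1.29 and 1.83 from induction to 12 h (adjusted p = 1.88e-04 at 12 h), with 2589 ± 865 normalised counts in the Control line and 9135 ± 2591 in the Activator line at 12 h. In uninduced cells Dcn was not called, but its replicates did not overlap. The means were 14864 normalised counts in the Control line and 22988 in the Activator line (log2 difference 0.64, standard error 0.37). Dcn is a fibroblast gene, and in both lines its level after induction was below that of uninduced cells. In contrast to Calcr and Zdbf2, Pon3, chosen after its values were seen, stood apart in uninduced cells already. It had 4.64 ± 2.23 and 48.5 ± 6.8 normalised counts (log2 difference 3.31, adjusted p = 7.03e-06). Summed markers of skeletal muscle, testis, and blood and endothelium also had higher ranges in the Activator line after induction, from 38.4–99.8, 104–135 and 188–264 normalised counts in uninduced cells to 87.4–340, 231–725 and 377–1780 from induction on. All 8 genes of each list but the haemoglobin gene Hbb-bs of the last had a count in some of these libraries. Only 1, 1 and 2 genes of these lists had a mean over 100 normalised counts in them, so the sums may rest on few genes. The median sum of the brain list went the other way, from 1646 to 957. That of the epidermis list went from 298 to 271 over all libraries from induction on, but was 334 at 12 h and 372 at 24 h. The median of the liver list went from 925 to 980, and that of the pluripotent and trophoblast list from 43.3 to 128. The part of these markers in the results on imprinted genes was not tested.

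Factors known to keep imprints were counted as a list of 16 genes, all of which were tested. None was called between the uninduced lines, with 4 at an unadjusted p under 0.05, beside 2964 of all 28536 tested genes. From induction to 24 h 3, 4, 4, 6 and 5 were called, each of them lower in the Activator line. Of all tested genes 5.71%, 9.45%, 10.3%, 10.9% and 4.12% were called lower at these times. Of the 16 genes 15 had a mean over 100 normalised counts, which a call needs, against 13628 of the 28536 tested genes. The median log2 difference of the list was −0.07 in uninduced cells and −0.23, −0.41, −0.45, −0.72 and −0.77 from induction to 24 h. Dnmt3b, a de novo DNA methyltransferase gene, had 436 ± 8.08 normalised counts in the Control line and 60.7 ± 21.5 in the Activator line at 3 h (log2 difference −2.87, adjusted p = 7.76e-12). Zfp57, whose product binds methylated imprinting control regions, had 1523 ± 118 and 331 ± 108 at that time (−2.24, adjusted p = 1.46e-08), and Zfp445, which acts beside it, reached −1.55 at 3 h (adjusted p = 5.05e-13). Setdb1, the gene of a histone H3 lysine methyltransferase that these zinc finger proteins recruit, reached −1.80 at 6 h (adjusted p = 1.63e-11), and the chromatin remodeller gene Hells −1.19 at 12 h (adjusted p = 7.41e-09). The part of these factors in the levels of the members was not tested.

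The IGF pathway was counted as a list of 13 genes, with none called between the uninduced lines. At an unadjusted p under 0.05 there were 3 of them, beside 2964 of all 28536 tested genes. From induction to 24 h 4, 5, 6, 5 and 2 were called, each of them lower in the Activator line, beside the same shares of all tested genes, and 11 of the 13 had a mean over 100 normalised counts. The median log2 difference was −0.26, −0.40, −0.57, −0.53 and −0.12. Irs1, an adaptor of the insulin and IGF1 receptors, had 14055 ± 676 normalised counts in the Control line and 569 ± 331 in the Activator line at 3 h (−4.79, adjusted p = 1.78e-07), and Irs2, its paralogue, reached −3.12 at 3 h (adjusted p = 1.19e-08). The receptor gene Igf1r reached −1.63 at 12 h (adjusted p = 8.26e-12). The genes of the RNA-binding proteins Igf2bp3 (−1.63 at 6 h, adjusted p = 5.72e-12) and Igf2bp2 (−1.57 at 3 h, adjusted p = 4.42e-12), which bind Igf2 mRNA, were lower too. On the adjusted p alone 4, 3, 4, 4 and 2 of the 13 genes were higher and 6, 7, 7, 7 and 5 lower, so the list did not move in 1 direction. The split of all tested genes by this rule is not given here for comparison. At an unadjusted p under 0.05 there were 10, 11, 11, 11 and 8 of them, beside 17624, 20823, 21626, 21903 and 19184 of all tested genes.

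To place the members among all genes, log2 normalised counts were correlated over the 12 group means with each gene of a mean over 100 normalised counts. The genes most alike to Usp29 were Ppig (Pearson r = 0.981), Fastkd1 (0.976) and Esco1 (0.971), and its correlation with Peg3 was 0.947. Those most alike to Peg3 were ENSMUSG00000099703 (0.96), Apex1 (0.952) and Gm26538 (0.949). For H19 they were Upk3b (0.97), Tapbp (0.962) and Gm19412 (0.959), and H19 ran opposite to Peg3 (−0.911). These values are descriptions over 12 points that share libraries and fall into 2 lines, and no test was made of them.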

How the data were processed

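RNA was measured by stranded, ribosomal RNA-depleted total RNA sequencing in 36 libraries. The authors trimmed paired-end reads with cutadapt and used STAR for alignment to GRCm38 and TEtranscripts for counting, and the deposited values are raw counts without normalisation. The annotation release, the strand setting and how multi-mapped reads were shared are not given in the sources used here. Libraries of the MSR-dCas9-Repressor line were not used here. The row without a name held 0.0021% to 0.00452% of counts and was left out, as were repeat families.

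Gene counts were analysed in R 4.3.3 with edgeR 4.0.16 (TMM, filterByExpr, quasi-likelihood test, Benjamini-Hochberg adjustment) in a single fit of 36 libraries by group with the replicate number as a block, after the design of the study. Between lines, same-numbered replicates correlated, after removal of group means, at −0.0156 to 0.441 over 13628 genes, above 0.1 in 15 of 18 pairs. Of 54842 genes, 28536 passed the filter. Genes were called at an adjusted p under 0.05, a fold change over 2 and a mean over 100 normalised counts. Standard errors are those of the log2 difference. Lower bounds used a floor of 3 counts over the group, and 95% intervals of ratios are exact binomial intervals of summed counts, covering counting error only.

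The members and the gene lists were chosen with earlier results of these data known. Differences of members between lines and within the Activator line are therefore given with no test. Named were the members, up to 15 called other imprinted genes with the largest mean difference, tested genes within 500 kb of the Peg3 domain, the 3 genes most alike to Usp29, Peg3 and H19 (pseudocount 0.5), and up to 5 called genes of each pathway list. Any other name was chosen after its values were seen. Alternatives were DESeq2 1.42.0, its size factors, unadjusted library sizes, scaling to 13 mitochondrial mRNAs, no filter, other call limits, no replicate block, the difference less that of uninduced cells, and leaving out each library. In data simulated for the induced lines, the steps called 200 of 200 altered genes and no other among 25934. The altered genes had a mean over 200 expected counts and were changed by at least 3-fold, with 1 fixed dispersion and no replicate effect. The simulation therefore does not cover genes of lower counts, as most members are, or the spread between the real replicates. Promoter sequences are those of RefSeq on GRCm38.p6.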

Additional observations from a re-analysis of the deposited data

Results flagged for a closer look

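For 14 of the other imprinted genes named, the change from uninduced cells differed between the lines by the test of the difference itself (edgeR's interaction term with Benjamini-Hochberg adjustment). These genes were named because their lines differed after induction in the same libraries, so the test is not independent of their choice, and the same test passed in 47.1% of all tested genes at 3 h and in 51% at 12 h. Given is the time with the largest such difference, as Activator less Control change on the log2 scale. At 3 h it was −1.86 for Tssc4 (standard error 0.16, adjusted p = 2.16e-09), −2.14 for Blcap (0.28, adjusted p = 8.76e-07), −1.98 for Zrsr1 (0.27, adjusted p = 1.04e-06) and −1.71 for Airn (0.36, adjusted p = 3.39e-04). Also at 3 h it was −1.61 for Kcnq1ot1 (0.20, adjusted p = 3.87e-07), −1.22 for Nespas (0.15, adjusted p = 2.2e-07) and −1.18 for Nnat (0.30, adjusted p = 0.00209). At 12 h it was −2.75 for Peg12 (0.30, adjusted p = 2.54e-08), −2.19 for Slc38a4 (0.33, adjusted p = 3.91e-06), −2.12 for Peg13 (0.41, adjusted p = 1.34e-04), −1.41 for Osbpl5 (0.32, adjusted p = 6.82e-04) and −1.34 for Pon2 (0.15, adjusted p = 3.22e-08). For Calcr it was 13.59 at 3 h (3.39, adjusted p = 0.00197) and for Zdbf2 13.54 at 12 h (3.84, adjusted p = 0.00512). Both genes are at 0 in whole groups, so these fitted values depend on the prior count and are no bounds.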

How the results depend on the processing

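Calls of the other imprinted genes between the lines depended most on the call limits. With no limit on the mean count 2, 23, 26, 26, 26 and 19 of 51 were called from uninduced cells to 24 h, and on the adjusted p alone 2, 34, 39, 40, 41 and 36. Of all 28536 tested genes 2964, 17624, 20823, 21626, 21903 and 19184 had an unadjusted p under 0.05 in the same order, which is a looser limit than either rule. On the adjusted p alone 1.23% of all tested genes passed in uninduced cells. The shares of all genes by either rule from induction on are not given here, so these counts cannot be set against them. Scaling to the mitochondrial mRNAs gave 8 at 24 h in place of 5. Leaving out 1 library gave 0 in uninduced cells, 9 to 10 after induction, then 12 to 13, 12 to 14, 10 to 13 and 4 to 9 in order of time. At 24 h it gave 9 without Activator replicate 2 and 4 without Activator replicate 3. In the Control line 2, 2 and 1 members passed on the adjusted p alone at 6, 12 and 24 h, and 0 by the full rule with any library left out. The fit with no replicate block gave 0, 10, 13, 14, 11 and 5 other imprinted genes and 0 members in the Control line, and the block changed no other count of these lists by over 1.5 times. Without the block the fall of Igf2 at 6 h (adjusted p = 0.0891) and that of Igf2r at 24 h (adjusted p = 0.139) in the Control line did not pass.

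Less the difference of uninduced cells, that of Peg3 was 0.18 at 3 h and 0.09 at 6 h, in place of negative values, since the difference was there before induction. By the same measure Usp29 was at −0.85, −1.52, −1.10, −2.33 and −0.16 from induction to 24 h. Of 48 log2 line differences of members, 22 moved by more than the SD between replicates with mitochondrial scaling, 10 with DESeq2, 10 with its size factors, 3 with library size without TMM and none without the low-count filter or the block. Igf2r at 12 h was past the 2-fold limit with DESeq2 (1.03), and without Activator 12 h replicate 2 the difference of Igf2 at 12 h was 1.25 in place of 1.00. Depth limits the members at or near 0 (Zim1, Dlk1, H19, Grb10, and Meg3 in the Control line), where a few reads in 1 library set the value.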
